A study of Mus musculus with 23 samples.

Results

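The genes described here are 37 mouse genes of the hypoxia response and of glycolysis, taken from a fixed list: 15 enzymes that carry glucose to lactate, 21 other genes known to be induced by low oxygen, and Hif1a, which encodes the oxygen-regulated subunit of hypoxia-inducible factor 1. Of these, 34 were measured by a probe set that the annotation gives to that gene alone, among 18193 genes tested, and each gene was represented by its probe set with the highest mean over all arrays. They comprised 13 enzymes, 20 other hypoxia-induced genes and Hif1a. The list was chosen with earlier results of these data known. Expression of Gpi1, Eno1 and Bnip3l is not analysed here. The samples were 8 subclones of LLC (Lewis lung carcinoma, a mouse tumour cell line that grows when transplanted), named 2, 3, 6, 18, 19, 23, 24 and 28 and obtained by limiting dilution of the parental cells. All were kept in DMEM with 10% FBS and antibiotics and then held for 24 h in serum-free FreeStyle expression medium before RNA extraction, so every group shares that treatment, and no parental or reference culture was included. Each subclone had 3 arrays except subclone 6, which had 2, for 23 arrays in all. The labels call them biological replicates without naming separate cultures, so the p-values below measure only the spread between these arrays, which may be technical.

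Cells sense oxygen through prolyl hydroxylases, the Egln proteins, which mark the alpha subunits of hypoxia-inducible factors for destruction while oxygen is present. When oxygen is short the alpha subunits persist, pair with Arnt and bind short DNA elements near their target genes. The targets include most glycolytic enzymes and glucose transporters, and genes for acid handling, collagen folding, mitochondrial removal and vessel signalling. The messenger RNA of Hif1a itself is not the main point of control, since the protein is regulated by its stability. Many tumour lines also express these genes in ordinary culture, and cell density and growth signals can alter them.

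The DNA just before the starts of these genes was examined for the core of the hypoxia response element, because the members are known targets and most of them moved together among the subclones. In RefSeq's GRCm38.p6 promoter table, 34 of the 37 listed genes had a window of 250 bases before an annotated start. These are not the 34 measured genes. They include Gpi1 and Eno1, which were not measured, and lack Slc2a3 and Ndrg1, which were. Windows were searched on both strands for the core ACGTG and for its variant with a leading G, spelled GCGTG. The palindrome spelled CACGTG, a site of other factors too, holds the first core on each strand and was then counted on both. At least 1 match was present for 30 of 34 genes (88.2%), against 41.5% of the 27025 genes with a window, 53.6% of the genes tested here that had one, and 67.3% of those with a mean log2 value of at least 10. A gene with several windows has more chances of a match. Counted by window, the shares in the same order were 76.5%, 38.6%, 48.9% and 60.7%. Some windows of Eno1, Aldoa and Pfkm overlap and repeat the same matches. Both letter groups contain CG, and the members' windows held a median of 14 CG dinucleotides, against 6 over all windows, 12 for the genes tested and 18 for those with a mean of at least 10. ACGTG alone occurred in 49% of the 51 member windows, in 16.6% of all 32851, in 19.5% for the genes tested and in 24.3% for those with a mean of at least 10. GCGTG occurred in 49%, 28.2%, 38% and 49% of the same sets and CACGTG in 9.8%, 6.02%, 7.38% and 9.83%, so neither was more frequent among the members than among genes of at least that mean. By group, ACGTG occurred in 34.6% of the 26 windows of enzymes and in 62.5% of the 24 windows of other hypoxia-induced genes. For GCGTG these shares were 46.2% and 54.2%. A match is a run of letters and not evidence of binding, and the windows of Tpi1, Eno2, Car12 and Gpi1 held none.

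Windows of 8 genes are shown 5′ to 3′ on the strand of the gene, ending at the base before the start, with matches in capitals. The first 4 belong to hypoxia-induced genes with wide ranges over the subclones, the next 2 to the enzymes with the widest ranges, and the last 2 to enzymes with narrow ranges. Not every wide-ranging gene is shown. Car9, Adm and Egln3 had ranges of 3.95, 2.01 and 1.91, wider than the 1.51 of Bnip3. Their windows, not shown, held 1, 2 and 1 matches.
Ero1a (chr14:45318573-45318822, minus strand): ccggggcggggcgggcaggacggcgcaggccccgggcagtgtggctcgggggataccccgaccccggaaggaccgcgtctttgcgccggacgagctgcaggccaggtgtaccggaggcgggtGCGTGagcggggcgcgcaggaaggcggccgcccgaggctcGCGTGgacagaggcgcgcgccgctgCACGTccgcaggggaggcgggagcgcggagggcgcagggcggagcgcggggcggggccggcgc
P4ha2 (chr11:54100674-54100923, plus strand): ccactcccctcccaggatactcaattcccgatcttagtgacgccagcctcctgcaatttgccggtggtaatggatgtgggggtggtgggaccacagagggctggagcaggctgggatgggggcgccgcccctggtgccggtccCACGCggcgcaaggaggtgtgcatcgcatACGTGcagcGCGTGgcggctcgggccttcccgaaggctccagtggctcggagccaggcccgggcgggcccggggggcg
Ankrd37 (chr8:45999851-46000100, minus strand): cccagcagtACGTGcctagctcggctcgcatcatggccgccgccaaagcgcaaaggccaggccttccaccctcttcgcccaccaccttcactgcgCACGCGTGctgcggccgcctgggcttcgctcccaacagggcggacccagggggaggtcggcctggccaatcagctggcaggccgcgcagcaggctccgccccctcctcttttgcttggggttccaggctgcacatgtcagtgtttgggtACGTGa
Bnip3 (chr7:138909507-138909756, minus strand): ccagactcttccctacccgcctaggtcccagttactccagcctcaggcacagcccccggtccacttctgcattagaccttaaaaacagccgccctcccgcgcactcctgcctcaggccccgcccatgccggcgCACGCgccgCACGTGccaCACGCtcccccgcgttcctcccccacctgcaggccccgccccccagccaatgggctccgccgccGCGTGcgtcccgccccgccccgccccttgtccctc
Pfkp (chr13:6648772-6649021, minus strand): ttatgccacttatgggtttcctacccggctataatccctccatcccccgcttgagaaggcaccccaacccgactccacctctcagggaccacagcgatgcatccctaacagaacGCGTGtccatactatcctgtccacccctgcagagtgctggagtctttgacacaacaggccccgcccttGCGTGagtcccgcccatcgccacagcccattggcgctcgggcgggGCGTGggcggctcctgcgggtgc
Hk2 (chr6:82774455-82774704, minus strand): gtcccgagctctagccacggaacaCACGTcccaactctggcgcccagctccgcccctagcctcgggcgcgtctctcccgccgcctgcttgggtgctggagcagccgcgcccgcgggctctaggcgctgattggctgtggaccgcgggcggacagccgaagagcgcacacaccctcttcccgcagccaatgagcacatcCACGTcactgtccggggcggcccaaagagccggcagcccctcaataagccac
Pgk1 (chrX:106186850-106187099, plus strand): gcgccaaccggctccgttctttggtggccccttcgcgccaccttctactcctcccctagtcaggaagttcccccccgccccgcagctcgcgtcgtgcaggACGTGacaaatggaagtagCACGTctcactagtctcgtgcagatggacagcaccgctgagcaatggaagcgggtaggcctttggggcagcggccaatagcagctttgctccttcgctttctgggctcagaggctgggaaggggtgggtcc
Ldha (chr7:46845554-46845803, plus strand): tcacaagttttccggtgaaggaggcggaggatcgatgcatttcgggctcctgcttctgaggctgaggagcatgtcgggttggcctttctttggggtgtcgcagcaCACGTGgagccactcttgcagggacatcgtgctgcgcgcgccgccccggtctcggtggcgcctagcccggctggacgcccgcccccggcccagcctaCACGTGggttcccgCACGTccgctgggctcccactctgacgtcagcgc
The window shown for Ldha, the gene with the narrowest range of the members, held 5 matches, as many as that of Bnip3 and more than the 3 of Ero1a. The window of the other listed start of Ldha, not shown, held 1. Matches lay 128, 88 and 63 bases before the start of Ero1a and 145, 144, 48, 47 and 34 bases before that of Ldha. The number of matches in these windows did not sort the wide-ranging genes from the narrow ones.

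Values are log2(intensity + 16), so a difference of 1 is a doubling on that scale, and folds of dim genes are understated. Array medians, means and ratios of 3′ to 5′ control probe sets were alike over the arrays, with Actb 3′ minus 5′ between 0.43 and 0.61. Keratins Krt8 (subclone means of 5.70 in subclone 18 and 10.32 or more elsewhere) and Krt18 (10.82 to 11.97) were present, while the lung lineage factor Nkx2-1 and the epithelial adhesion gene Cdh1 did not exceed 4.81 on any array. Of 6 measured leukocyte genes, Ptprc, Cd3e, Itgam and Adgre1 did not exceed 5.37 on any array, while Csf1r had subclone means of 7.02 to 7.29 and Cd68 of 6.14 to 8.94. The 5 endothelial genes did not exceed 5.59. Each array measured a whole culture, in which fewer expressing cells and less RNA per cell cannot be told apart.

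The hypoxia response genes formed a graded pattern over the subclones, low in subclones 18 and 24 and high in subclones 28, 6 and 2. All 34 members passed the limma moderated F-test for any difference among the 8 subclones at an adjusted p of 0.05 (background 61.8% of all genes tested, and 91.4% of the 10646 genes with a mean of at least 6). The highest and lowest subclone means were at least 1 log2 unit apart for 18 of the 34 (52.9%), against 12.7% of all genes and 18.3% of genes with a mean of at least 6. The median range was 1.08 for the members and 0.49 for all genes. The lowest mean lay in subclone 18 for 20 members (58.8%, background 16.1%) and in subclone 24 for 8 (background 11.9%, 5 members without replicate 1 of subclone 24). The highest lay in subclone 28 for 15 (44.1%, background 12.8%), in subclone 2 for 10 (background 11%) and in subclone 6 for 5 (background 12.7%). Thus 28 members were lowest in subclone 18 or 24, and 30 were highest in subclone 2, 6 or 28.

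**Figure D1:**
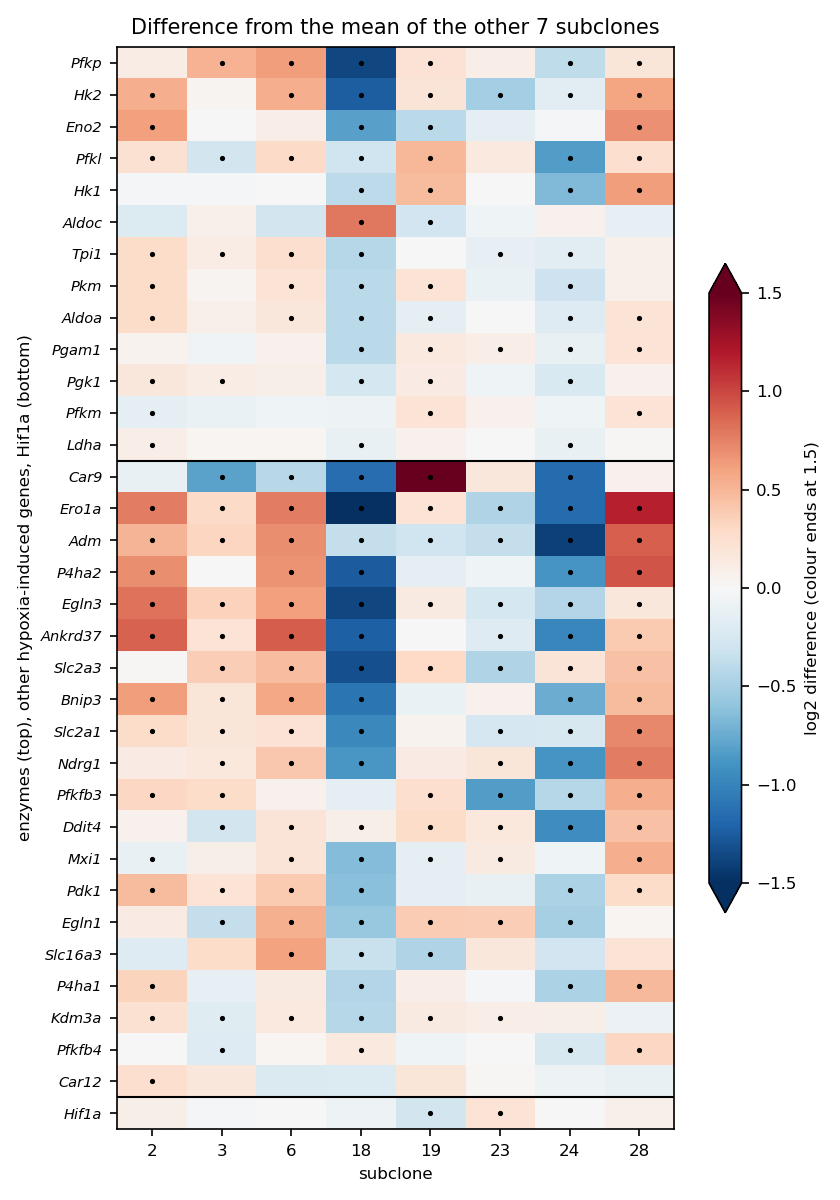
Difference of each subclone (columns) from the mean of the other 7 for the 34 measured members (rows), in log2 units, with glycolytic enzymes at the top, other hypoxia-induced genes below them and Hif1a last. Red is higher and blue lower, the colour scale ends at 1.5, and a dot marks an adjusted p under 0.05 in limma. Subclone 18 is lower for 27 members and subclone 24 for 25, and the single darkest red cell is Car9 in subclone 19 at 3.37.

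Each subclone was then set against the average of the other 7 subclone means (limma, adjusted p under 0.05). These contrasts share arrays, so the counts are not independent. In subclone 18, 27 of 34 members were lower and 3 higher (background 21.6% lower and 21.5% higher, 1 higher without its replicate 3), with a median difference of -0.43 where the median over all genes lay within 0.02 of 0. In subclone 24, 25 were lower and 1 higher (background 17.1% and 15.2%, median -0.30, 0 higher without its replicate 2 or 3). In subclone 28, 23 were higher and 0 lower (background 19.2% and 18.2%, median 0.26), in subclone 6, 21 higher and 1 lower (13.8% and 10.1%, median 0.19), and in subclone 2, 20 higher and 2 lower (15.4% and 20.5%, median 0.23). Subclone 19 was mixed, with 16 higher and 7 lower (24.2% and 17.7%, median 0.12), as was subclone 3 with 13 higher and 6 lower (19.4% and 18.6%, median 0.08), and subclone 23 had 7 higher and 9 lower (20.2% and 17.4%, median -0.01), with 3 or 4 higher without its replicate 3 or 1. Without subclone 18 in the reference, a comparison added after the data were seen, the counts were 10 higher in subclone 19 and 5 higher and 10 lower in subclone 3.

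Differences of at least 2-fold were fewer. In subclone 18, 9 members were at least 2-fold lower (background 1.79%): the enzymes Hk2 and Pfkp, and Slc2a3, Ero1a, Egln3, Ankrd37, Car9, Bnip3 and P4ha2. In subclone 24, 3 were (background 0.687%): Adm, Ero1a and Car9. Ero1a alone was at least 2-fold higher in subclone 28 (background 0.973%), and Car9 alone in subclone 19 (background 0.885%). Every array of subclone 18 lay below all other arrays for 14 members (background 6.28%), every array of subclone 28 above all others for 11 (background 3.95%), and every array of subclone 24 below all others for 4 (background 2.66%).

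Hif1a and the hydroxylases that control it come first in the pathway. Hif1a spanned only 0.40 log2 units, from a mean of 12.03 in subclone 19 to 12.43 in subclone 23. Its level was 12.19 in subclone 18 (difference from the other 7 -0.08 ± 0.045 SE, adjusted p = 0.194 in limma) and 12.26 in subclone 24 (adjusted p = 0.964). The order of the subclones by Hif1a was therefore not that of the induced genes, and the only neighbouring step that passed the test was that between subclones 19 and 18. Egln3, the hydroxylase whose gene is itself strongly induced by hypoxia, read 10.35, 10.52 and 10.66 in subclone 18, 11.20, 11.35 and 11.43 in subclone 24, 11.47, 11.43 and 11.55 in subclone 23, 11.70, 11.90 and 11.91 in subclone 19, 12.01, 12.02 and 12.00 in subclone 3, 12.38, 12.42 and 12.45 in subclone 2, 12.31 and 12.18 in subclone 6, and 11.85, 11.85 and 11.88 in subclone 28. All 3 arrays of subclone 18 lay below every other array, and subclones 2 and 6 were at the top. Egln3 was 2.59-fold lower in subclone 18 than in the other 7 (-1.37 ± 0.056, adjusted p = 4.19e-13). Egln1, the main hydroxylase in most cells and also an induced gene, ranged over 0.96 log2 units, from 10.17 in subclone 18 to 11.13 in subclone 6. Subclones 18, 24 and 3 were its low group, and no step among those 3 passed the test.

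Glucose enters through the transporters Slc2a1 (GLUT1) and Slc2a3 (GLUT3), and both were lowest in subclone 18. Slc2a1 read 10.82, 10.75 and 10.83 in subclone 18, 11.34, 11.51 and 11.48 in subclone 24, 11.42, 11.48 and 11.40 in subclone 23, 11.61, 11.76 and 11.71 in subclone 19, 11.79, 11.82 and 11.81 in subclone 3, 11.98, 11.90 and 11.81 in subclone 2, 11.96 and 11.74 in subclone 6, and 12.18, 12.33 and 12.34 in subclone 28. Subclone 18 lay below and subclone 28 above the rest, with no overlap, 1.48 log2 units apart by their means. Slc2a3, a high-affinity transporter, read 6.33, 6.50 and 6.41 in subclone 18, 7.62, 7.76 and 7.81 in subclone 24, 7.20, 7.13 and 7.20 in subclone 23, 7.76, 7.83 and 7.91 in subclone 19, 7.94, 7.81 and 7.93 in subclone 3, 7.50, 7.67 and 7.59 in subclone 2, 8.09 and 7.85 in subclone 6, and 7.92, 8.02 and 7.91 in subclone 28. It was 2.5-fold lower in subclone 18 than in the other 7 (-1.32 ± 0.054, adjusted p = 3.61e-13, limma). In subclone 24 it was the single member that was higher (0.19 ± 0.054, adjusted p = 0.0107), but that call rested on subclone 18 in the reference. Without subclone 18 the difference was -0.00 (adjusted p = 0.992), and it was also lost with the mean of all probe sets and without replicate 2 or 3 of subclone 24.

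Hexokinases trap glucose in the cell, and the 2 measured isoforms had different orders. Hk2, the inducible isoform, read 10.24, 10.25 and 10.43 in subclone 18, 11.20, 11.24 and 11.33 in subclone 24, 10.90, 10.95 and 11.01 in subclone 23, 11.42, 11.63 and 11.63 in subclone 19, 11.41, 11.48 and 11.40 in subclone 3, 11.90, 11.89 and 11.85 in subclone 2, 11.87 and 11.86 in subclone 6, and 11.92, 11.89 and 11.92 in subclone 28. Its lowest subclones were 18, 23 and 24 in that order, each step passing the test, and it was 2.37-fold lower in subclone 18 (-1.24 ± 0.045, adjusted p = 8.33e-14). Hk1, the constitutive isoform, read 10.29, 10.37 and 10.40 in subclone 18, 10.09, 10.15 and 10.12 in subclone 24, 10.66, 10.66 and 10.75 in subclone 23, 11.02, 11.13 and 11.19 in subclone 19, 10.74, 10.69 and 10.61 in subclone 3, 10.65, 10.72 and 10.66 in subclone 2, 10.79 and 10.61 in subclone 6, and 11.23, 11.24 and 11.28 in subclone 28. Hk1 was lowest in subclone 24 (-0.66 ± 0.041, adjusted p = 5.02e-10) and highest in subclones 28 and 19, a range of 1.13.

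Phosphofructokinase, the committed step of glycolysis, is made from the products of Pfkp, Pfkl and Pfkm, and each gene had a different lowest subclone. Pfkp, the platelet-type isoform, read 9.24, 9.15 and 9.32 in subclone 18, 10.07, 10.07 and 10.14 in subclone 24, 10.47, 10.48 and 10.58 in subclone 23, 10.40, 10.75 and 10.69 in subclone 19, 10.84, 10.94 and 10.86 in subclone 3, 10.54, 10.49 and 10.54 in subclone 2, 10.95 and 11.00 in subclone 6, and 10.59, 10.58 and 10.56 in subclone 28. It was 2.56-fold lower in subclone 18 (-1.36 ± 0.053, adjusted p = 1.84e-13) and lay highest in subclones 6 and 3. Pfkl, the liver-type isoform, read 8.77, 8.77 and 8.73 in subclone 18, 8.16, 8.32 and 8.38 in subclone 24, 9.16, 9.05 and 9.22 in subclone 23, 9.22, 9.59 and 9.54 in subclone 19, 8.67, 8.88 and 8.79 in subclone 3, 9.17, 9.22 and 9.28 in subclone 2, 9.38 and 9.16 in subclone 6, and 9.18, 9.29 and 9.26 in subclone 28. It was lowest in subclone 24 (-0.84 ± 0.067, adjusted p = 1.28e-08) and spanned 1.17 log2 units. Pfkm, the muscle-type isoform, moved little, with a range of 0.30 and no neighbouring subclones that passed the test.

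The remaining steps to lactate were nearly level. Aldoa spanned 0.59 log2 units, Tpi1 0.61, Pgk1 0.38, Pgam1 0.54, Pkm 0.60 and Ldha 0.18, which is 1.14-fold between subclones 18 and 2. Each of these 6 enzymes had its lowest mean in subclone 18, by differences of -0.40, -0.43, -0.26, -0.41, -0.40 and -0.11 from the other 7, all past the test, and each was also lower in subclone 24. Ldha, which turns pyruvate into lactate, read 13.29, 13.31 and 13.34 in subclone 18, 13.28, 13.30 and 13.36 in subclone 24, 13.40, 13.38 and 13.42 in subclone 23, 13.45, 13.46 and 13.47 in subclone 19, 13.46, 13.43 and 13.41 in subclone 3, 13.45, 13.51 and 13.53 in subclone 2, 13.47 and 13.40 in subclone 6, and 13.45, 13.39 and 13.43 in subclone 28. No neighbouring pair of subclones differed for Ldha past the test. Eno2, the neuronal enolase and an induced gene, was the exception among the late steps, and read 6.66, 6.67 and 6.77 in subclone 18, 7.39, 7.37 and 7.42 in subclone 24, 7.41, 7.18 and 7.33 in subclone 23, 7.05, 7.12 and 7.05 in subclone 19, 7.55, 7.43 and 7.26 in subclone 3, 7.90, 7.94 and 8.03 in subclone 2, 7.62 and 7.40 in subclone 6, and 8.10, 8.11 and 7.85 in subclone 28. Its range was 1.32, with subclone 18 lowest and subclones 2 and 28 highest. Aldoc, the brain-type aldolase, ran the other way, with 5.01, 5.23 and 5.49 in subclone 18 and no more than 4.73 on any other array. That difference (0.79 ± 0.092, adjusted p = 8.25e-07) lies at the dim end of the scale, and a second Aldoc probe set gave -0.14.

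**Figure D2:**
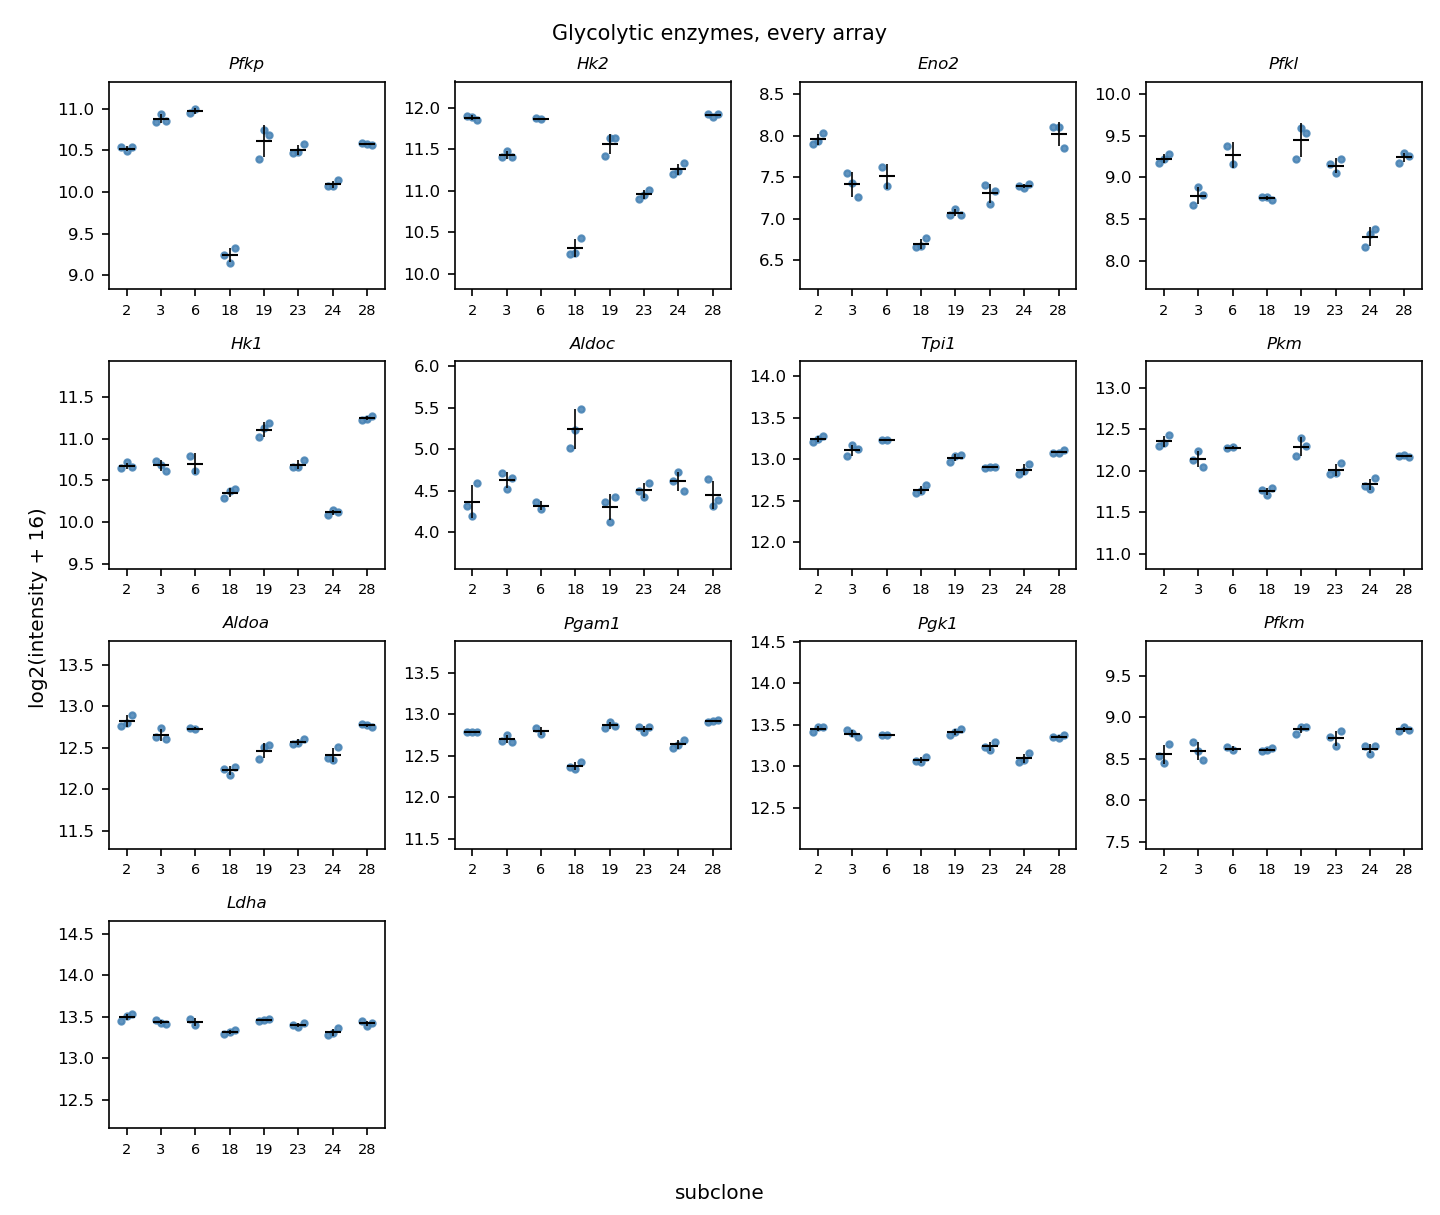
Log2(intensity + 16) of the 13 measured glycolytic enzymes on every array (blue points), by subclone, with the mean (bar) and SD (line) of each subclone. Each panel has its own vertical axis, spanning at least 2.5 log2 units. Pfkp, Hk2 and Eno2 dip in subclone 18 and Pfkl and Hk1 in subclone 24, while the subclone means of Ldha, Pfkm and Pgk1 stay within 0.38 log2 units.

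Genes that steer the flux and export lactate came next. Pfkfb3, which makes the activator of phosphofructokinase, read 6.77, 6.82 and 6.95 in subclone 18, 6.58, 6.67 and 6.54 in subclone 24, 6.29, 6.20 and 6.23 in subclone 23, 7.22, 7.29 and 7.08 in subclone 19, 7.27, 7.09 and 7.27 in subclone 3, 7.21, 7.33 and 7.20 in subclone 2, 7.20 and 6.86 in subclone 6, and 7.40, 7.49 and 7.45 in subclone 28. It was the single member with its lowest mean in subclone 23 (6.24), and subclone 24 came next at 6.60. Its relative Pfkfb4 spanned 0.48 and was among the 3 members that were higher in subclone 18, by 0.15 ± 0.053 (adjusted p = 0.0299). Pdk1, a kinase of pyruvate dehydrogenase, ran from 11.24 in subclone 18 and 11.37 in subclone 24 to 12.20 in subclone 2. The lactate exporter Slc16a3 was dim, with subclone means from 4.77 to 5.69 and no neighbouring step past the test.

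Car9, the membrane carbonic anhydrase used as a tumour hypoxia marker, had the widest range of the members and its own order. It read 5.09, 5.20 and 5.06 in subclone 18, 5.26, 5.08 and 5.00 in subclone 24, 6.30, 6.02 and 6.46 in subclone 23, 8.69, 9.23 and 9.28 in subclone 19, 5.31, 5.32 and 5.63 in subclone 3, 5.90, 6.14 and 6.02 in subclone 2, 5.69 and 5.81 in subclone 6, and 6.12, 6.25 and 6.15 in subclone 28. The 3 arrays of subclone 19 read 8.69 or more, and no other array passed 6.46. Car9 was 10.4-fold higher in subclone 19 than in the other 7 (3.37 ± 0.104, adjusted p = 1.78e-14), and no neighbouring step among those 7 passed the test. Those 7 were not level, however. By pairs, Car9 was at least 2-fold lower in subclones 18 and 24 (means 5.12 and 5.11) than in 23 and 28 (6.26 and 6.17). It was also 2.21-fold lower in subclone 18 and in subclone 24, against a reference that then included subclone 19, and the readings of both lie at the dim end of the scale. Car12, the other carbonic anhydrase of the list, spanned 0.41 between 5.94 in subclone 6 and 6.35 in subclone 2 and passed the F-test at an adjusted p of 0.0337. In subclone 19 the 20 other hypoxia-induced genes, Car9 included, went both ways, with 8 higher (background 24.2%), 3 lower (background 17.7%) and a group level of 0.06 ± 0.08 (SD, n = 3). Slc16a3 had its lowest mean there (4.77), and Mxi1 was at 11.21, while Egln1 at 11.00 and Ddit4 at 11.39 lay just below their highest.

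Genes for secretion and collagen folding included the widest range after that of Car9. This was Ero1a, the oxidase that drives disulfide formation in the endoplasmic reticulum, which read 10.91, 10.55 and 10.83 in subclone 18, 11.04, 11.23 and 11.22 in subclone 24, 11.75, 11.77 and 11.81 in subclone 23, 12.15, 12.45 and 12.43 in subclone 19, 12.40, 12.43 and 12.43 in subclone 3, 12.83, 12.83 and 12.85 in subclone 2, 12.90 and 12.77 in subclone 6, and 13.16, 13.21 and 13.21 in subclone 28. The subclones rose in the order 18, 24, 23, 19 and 3, 2 and 6, and 28, and 5 of the 7 neighbouring steps passed the test. Ero1a was 3.04-fold lower in subclone 18 (-1.60 ± 0.063, adjusted p = 2.37e-13), 2.21-fold lower in subclone 24 (-1.15 ± 0.063) and higher by 1.17 in subclone 28. P4ha2, a subunit of the prolyl hydroxylase of collagen, read 9.00, 9.17 and 9.26 in subclone 18, 9.36, 9.49 and 9.55 in subclone 24, 10.19, 10.14 and 10.22 in subclone 23, 9.98, 10.14 and 10.25 in subclone 19, 10.05, 10.34 and 10.33 in subclone 3, 10.83, 10.91 and 10.82 in subclone 2, 10.90 and 10.74 in subclone 6, and 10.99, 11.10 and 11.08 in subclone 28. It followed the same low end, 18 below 24 below the rest, and was 2.38-fold lower in subclone 18 (-1.25 ± 0.065, adjusted p = 1.23e-11). Its partner P4ha1 spanned 0.85, from 11.36 in subclone 24 and 11.39 in subclone 18 to 12.20 in subclone 28.

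Adm, which encodes the vasodilator peptide adrenomedullin, was lowest in subclone 24 and not in subclone 18. It read 10.55, 10.53 and 10.65 in subclone 18, 9.53, 9.64 and 9.83 in subclone 24, 10.59, 10.46 and 10.68 in subclone 23, 10.36, 10.77 and 10.78 in subclone 19, 11.24, 11.13 and 11.15 in subclone 3, 11.34, 11.35 and 11.33 in subclone 2, 11.52 and 11.49 in subclone 6, and 11.70, 11.67 and 11.67 in subclone 28. All arrays of subclone 24 lay below all others, and subclones 23, 18 and 19 formed an intermediate level whose steps did not pass the test. Adm was 2.65-fold lower in subclone 24 (-1.40 ± 0.07, adjusted p = 2.24e-11) and 1.28-fold lower in subclone 18 (-0.36 ± 0.07, adjusted p = 0.000279).

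Mitochondrial, stress and regulatory genes of the response differed in their order over the subclones. Bnip3, a receptor for the removal of mitochondria, read 11.12, 10.99 and 11.21 in subclone 18, 11.31, 11.42 and 11.53 in subclone 24, 12.07, 12.10 and 12.20 in subclone 23, 11.79, 12.05 and 12.11 in subclone 19, 12.25, 12.22 and 12.20 in subclone 3, 12.58, 12.62 and 12.65 in subclone 2, 12.61 and 12.54 in subclone 6, and 12.47, 12.48 and 12.50 in subclone 28. Subclone 18 lay below subclone 24 and both lay below every other array, and Bnip3 was 2.13-fold lower in subclone 18 (-1.09 ± 0.055, adjusted p = 8.88e-12). Ankrd37, a small ankyrin-repeat protein and a direct target of the factor, read 7.07, 6.79 and 6.87 in subclone 18, 7.09, 6.98 and 7.30 in subclone 24, 7.83, 7.67 and 7.94 in subclone 23, 7.82, 8.03 and 8.05 in subclone 19, 8.09, 8.14 and 8.27 in subclone 3, 8.79, 8.78 and 8.71 in subclone 2, 8.87 and 8.68 in subclone 6, and 8.34, 8.40 and 8.22 in subclone 28. Subclones 18 and 24 overlapped there and did not differ past the test, and subclones 2 and 6 were highest. Ndrg1, a stress-induced gene, read 10.48, 10.37 and 10.56 in subclone 18, 10.33, 10.52 and 10.49 in subclone 24, 11.38, 11.35 and 11.46 in subclone 23, 11.15, 11.42 and 11.43 in subclone 19, 11.33, 11.35 and 11.45 in subclone 3, 11.47, 11.30 and 11.25 in subclone 2, 11.68 and 11.50 in subclone 6, and 11.86, 11.92 and 11.94 in subclone 28. It was 1.83-fold lower in subclone 18 and 1.86-fold lower in subclone 24, which did not differ past the test, and highest in subclone 28. Ddit4, an inhibitor of mTORC1 signalling that other stresses also induce, read 11.20, 11.20 and 11.29 in subclone 18, 10.29, 10.37 and 10.34 in subclone 24, 11.30, 11.30 and 11.27 in subclone 23, 11.40, 11.43 and 11.35 in subclone 19, 10.94, 10.88 and 10.90 in subclone 3, 11.19, 11.22 and 11.19 in subclone 2, 11.34 and 11.29 in subclone 6, and 11.54, 11.50 and 11.56 in subclone 28. It was 1.91-fold lower in subclone 24 (-0.93 ± 0.029, adjusted p = 3.62e-14) but not lower in subclone 18. There it was 0.09 ± 0.029 above the other 7 (adjusted p = 0.0135), a call that was lost without replicate 3 of subclone 18 (0.06, adjusted p = 0.159) and without subclone 24 in the reference (-0.04, adjusted p = 0.293). Mxi1, an antagonist of Myc, read 10.78, 10.71 and 10.77 in subclone 18, 11.23, 11.29 and 11.31 in subclone 24, 11.39, 11.43 and 11.52 in subclone 23, 11.07, 11.31 and 11.24 in subclone 19, 11.46, 11.38 and 11.39 in subclone 3, 11.28, 11.23 and 11.18 in subclone 2, 11.51 and 11.47 in subclone 6, and 11.79, 11.79 and 11.80 in subclone 28. Its means ran from 10.75 in subclone 18 to 11.80 in subclone 28, and in subclone 24 it did not differ past the test (-0.06 ± 0.04, adjusted p = 0.318). Kdm3a, an oxygen-dependent histone demethylase, spanned 0.58 and was lowest in subclone 18. It was not higher in subclone 28 (-0.09 ± 0.037, adjusted p = 0.0565 in limma).

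**Figure D3:**
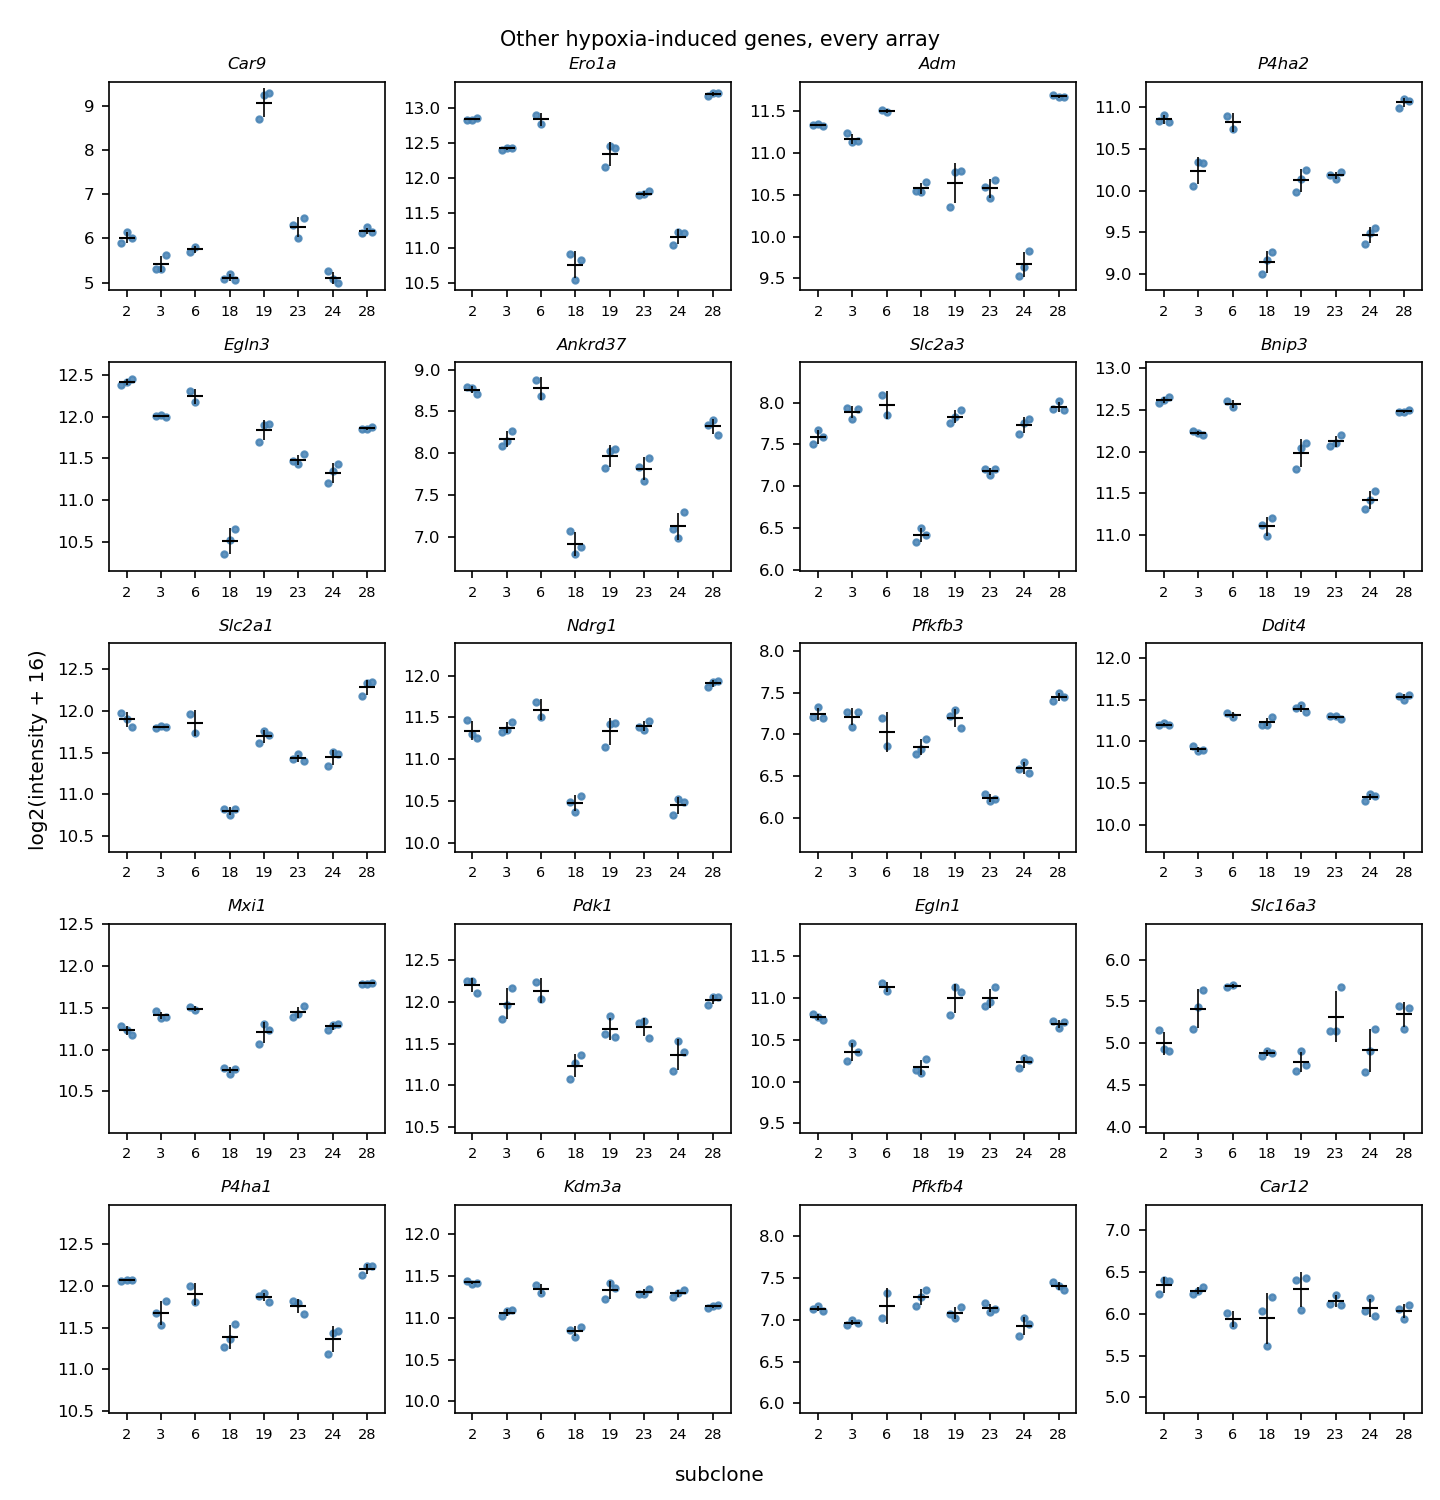
Log2(intensity + 16) of the 20 other hypoxia-induced genes on every array (blue points), by subclone, with the mean (bar) and SD (line) of each subclone, ordered by range. Each panel has its own vertical axis, spanning at least 2.5 log2 units. Car9 stands apart in subclone 19, Adm and Ddit4 are lowest in subclone 24, and Ero1a, P4ha2, Egln3 and Bnip3 are lowest in subclone 18.

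The glycolytic enzymes and the other hypoxia-induced genes changed in the same direction in subclones 18, 24, 28, 6 and 2 but to different extents. The median range was 0.61 log2 units (1.53-fold) over the 13 enzymes and 1.33 (2.52-fold) over the 20 others. A range of at least 1 was found for 5 enzymes and 13 others (background 12.7%). In subclone 18, 11 enzymes were lower and 1 higher, and 16 of the others were lower and 2 higher (background 21.6% and 21.5%). In subclone 24, 10 enzymes were lower and 0 higher, and 15 of the others lower and 1 higher (background 17.1% and 15.2%). In subclone 28, 8 enzymes and 15 of the others were higher and none of either lower (background 19.2% and 18.2%). For each array a group level was taken as the median over the genes of a group of the value minus the mean of the 8 subclone means. The enzymes' level was -0.35 ± 0.04 (SD, n = 3) in subclone 18 and -0.14 ± 0.07 in subclone 24, and that of the others was -0.57 ± 0.07 and -0.43 ± 0.11. In subclone 28 the levels were 0.17 ± 0.01 and 0.38 ± 0.03, in subclone 6 0.12 ± 0.06 and 0.35 ± 0.14 (n = 2), and in subclone 2 0.15 ± 0.03 and 0.24 ± 0.03.

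The difference of enzymes minus others was 0.23 ± 0.06 in subclone 18 and 0.29 ± 0.09 in subclone 24, and negative in subclones 28 (-0.21 ± 0.02), 6 (-0.23 ± 0.08), 3 (-0.11 ± 0.06) and 2 (-0.09 ± 0.04). The enzymes thus stayed nearer the middle at both ends. In subclones 19 (0.06 ± 0.01) and 23 (0.01 ± 0.04) the difference was small, and its sign turned in subclone 19 when means replaced medians (-0.10) or when the 6 genes of transport and flux control were counted with the enzymes (-0.02). In subclone 23 it turned with that regrouping (-0.06) and without replicate 3 of subclone 23 (-0.01). The regrouping raised the difference in subclone 24 to 0.54. No test was run on these levels, since the groups were set with results known.

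**Figure D4:**
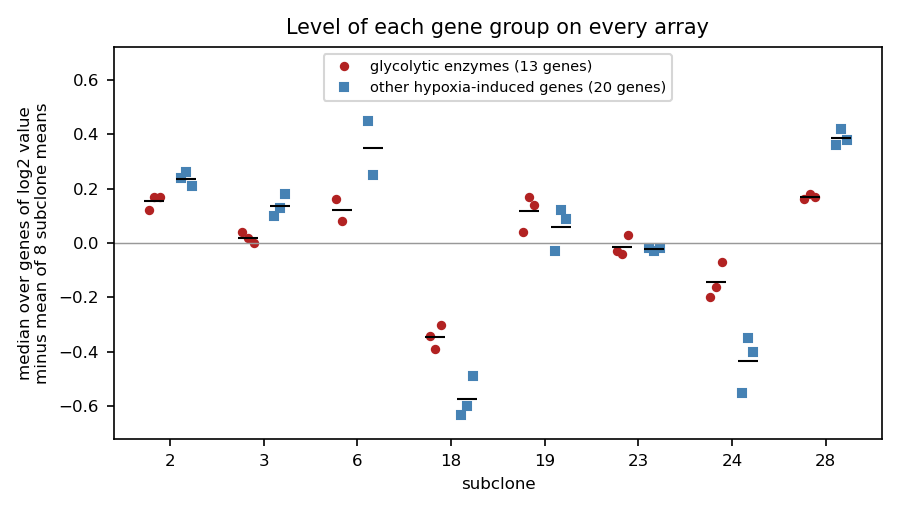
Level of the glycolytic enzymes (13 genes, red circles) and of the other hypoxia-induced genes (20 genes, blue squares) on every array, by subclone. The vertical axis is the median over the genes of the log2 value minus the mean of the 8 subclone means, and bars are subclone means. The blue squares reach from -0.57 in subclone 18 to 0.38 in subclone 28 by their means, and the red circles from -0.35 to 0.17.

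The brightness of the probe sets moved with this contrast. Among all 439 genes with a mean of 12 or more, the median range was 0.35 and 3.19% had a range of at least 1. Of the enzymes, 6 lay there, with ranges of 0.18 to 0.61, as did 2 of the others, Ero1a and Bnip3, with ranges of 2.43 and 1.51. At means of 10 to 12, where the median range of all genes was 0.58, the 3 enzymes Hk1, Hk2 and Pfkp had ranges of 1.13 to 1.74 and the 11 others a median of 1.20. Ldha intensities ran from 9948.5 to 11783.92 and the highest value on any array was 17068.52. Whether bright readings are compressed near the top of the scale was not tested.

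**Figure D5:**
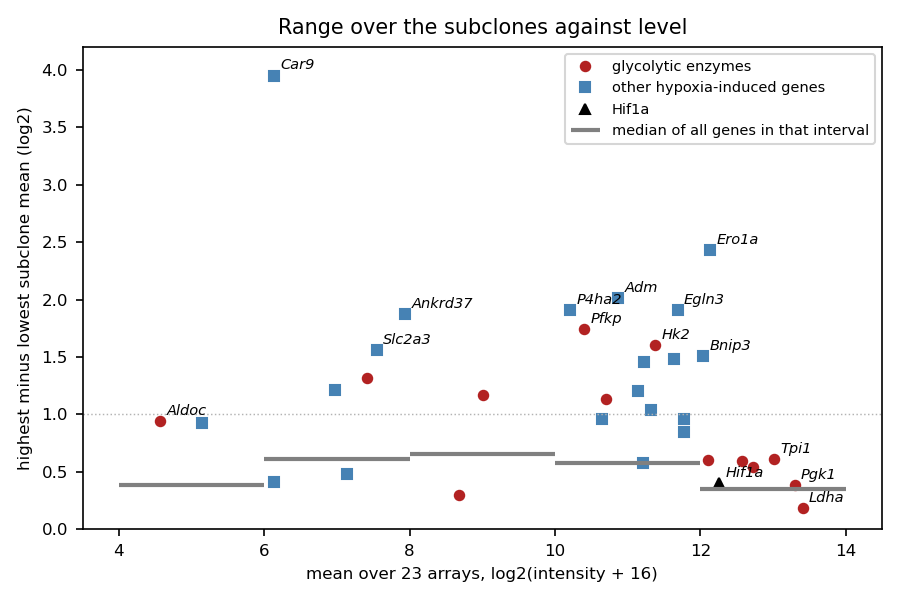
Range over the subclones (highest minus lowest subclone mean, log2) against the mean over 23 arrays, for enzymes (red circles), other hypoxia-induced genes (blue squares) and Hif1a (triangle). Grey lines give the median range of all genes in each interval of the mean, 0.35 to 0.65, and the dotted line marks 1. Tpi1, Pgk1 and Ldha lie at the bright end with ranges of 0.61 or less, while Ero1a at a mean of 12.14 spans 2.43.

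Between pairs of subclones, the members were at least 2-fold apart (limma, adjusted p under 0.05) in 97 of 952 gene and pair combinations (10.2%, background 2.41%). Pairs with subclone 18 gave 56 of the 97 and pairs with subclone 24 gave 30, with 1 between those 2 subclones. Subclones 18 and 28 were farthest apart, with 14 of 34 members (41.2%, background 4.49%), all 14 higher in subclone 28, and 3 of them enzymes. Subclone 18 differed by 10 members from subclone 2 (background 4.5%) and by 10 from subclone 6 (background 3.73%), and subclone 24 differed by 9 from subclone 28 (background 2.83%). No member was 2-fold apart between any pair among subclones 2, 6 and 28 (background 0.956% for 2 and 6, 1.51% for 2 and 28 and 1.17% for 6 and 28). Ero1a was 2-fold apart in 14 of 28 pairs, Car9 in 11, Ankrd37 in 9, and Bnip3 and P4ha2 in 8 each. By the probe sets used, 16 members, Hif1a and 8 of the 13 enzymes among them, were not 2-fold apart in any pair. Further probe sets, not tested, spanned more than 1 log2 unit for Pdk1 (1.46 and 1.32, with another at 0.81), Egln1 (1.32) and P4ha1 (1.23). Those of Aldoa, Aldoc, Tpi1, Pgk1, Car12 and Hif1a did not.

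Other genes of the pathway, taken from a wider list of 32 known hypoxia-induced genes of which 30 were measured, showed the same low and high subclones with exceptions. This list too was chosen with earlier results of these data known, so its counts are not independent support. In subclone 18, 20 were lower and 4 higher (background 21.6% and 21.5%). In subclone 24, 19 were lower and 2 higher (background 17.1% and 15.2%). In subclone 28, 18 were higher and 5 lower (background 19.2% and 18.2%). For subclone 2 the counts were 19 higher and 3 lower (background 15.4% and 20.5%). For subclone 6 they were 16 higher and 3 lower (background 13.8% and 10.1%). The angiogenic factor Vegfa was -0.77 in subclone 18, -0.53 in subclone 24 and 0.61 in subclone 28 relative to the other 7. The collagen lysyl hydroxylases Plod1 (-1.61) and Plod2 (-1.41) and the clock-related repressor Bhlhe40 (-1.61) were low in subclone 18, and Fam162a was lowest in subclone 24 (-0.98). Angptl4, a lipase inhibitor that fatty acid sensors also induce, went the other way, 2.21 higher in subclone 18 and -1.67 in subclone 28. Stc1, a secreted glycoprotein, was -1.96 in subclone 18 and 0.98 in subclone 24. Tfrc (0.80), Cited2 (0.53) and the dim Ppfia4 (0.36) were also higher in subclone 18. Vldlr was -0.96 in subclone 18, 0.28 in subclone 24 and -0.81 in subclone 28.

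The rest of the oxygen-sensing machinery, without Hif1a, Egln1 and Egln3, stood near the background as a list. Of 7 genes, 4 passed the F-test (61.8% of all genes) and 1 had a range of at least 1 (12.7% of all genes), and the median range was 0.46 against 0.49. That gene was Arnt2, a partner of the alpha subunits, with a mean of 6.84 in subclone 18 against 5.00 to 5.82 elsewhere. Arnt spanned 0.73, and relative to the other 7 it was 0.49 in subclone 28 and -0.15 in subclone 18. Vhl, which recognises the hydroxylated subunits, spanned 0.41 and Hif1an 0.42, while Epas1 stayed at the dim end. Of 18 other glycolytic and pyruvate genes measured among 23 listed, 10 passed the F-test and 2 had a range of at least 1, with a median range of 0.48, again near the background. Those 2 were Pdk4, a kinase of pyruvate dehydrogenase linked to fat use, which was 2.30 higher in subclone 18, and Ldhb, the heart-type lactate dehydrogenase, which was 0.68 higher there. All 6 measured genes of the pentose phosphate route passed the F-test and none had a range of at least 1. The 3′ control probe set of Gapdh read 12.89 to 12.99 in subclone 18 and 13.33 to 13.37 in subclone 2.

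Other gene lists also differed among the subclones, in part along other lines. Of 16 measured proliferation genes, 15 were higher in subclone 18 (background 21.5%) and 12 in subclone 24 (background 15.2%), while 10 were lower in subclone 28 (background 18.2%) and all 16 in subclone 2 (background 20.5%). Subclone 6, which was high for the hypoxia genes as well, had 7 proliferation genes higher and 0 lower (background 13.8% and 10.1%). Of 15 genes induced by endoplasmic reticulum stress or amino acid shortage, 9 were lower in subclone 18 (background 21.6%) and 8 in subclone 24 (background 17.1%), led by Slc7a11 (-1.48) and Trib3 (-1.28) in subclone 18. This list did not follow the high end in subclones 2 and 28. It had 8 lower and 4 higher in subclone 2 (background 20.5% and 15.4%). In subclone 28, 6 were lower and 5 higher (background 18.2% and 19.2%). In subclone 6, 3 were lower and 6 higher (background 10.1% and 13.8%). Of 6 measured leukocyte markers, 1, the lysosomal gene Cd68, passed the F-test, and the summed intensity of the 6 was 203 to 233 in subclone 18, 230 to 249 in subclone 24 and 624 to 671 in subclone 28. It was 309 to 349 in subclones 2 and 6, and 503 to 602 in subclones 3 and 19. The summed fibroblast markers read 750 to 906 in subclone 18, 2293 to 2339 in subclone 24 and 4969 to 5077 in subclone 28, mostly through the matrix gene Dcn, but 852 to 913 in subclone 19 and 4926 to 5220 in subclone 2. The part of these in the hypoxia pattern was not tested.

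The chromosome of a gene also moved with some results. The 516 genes of chromosome 10 with a mean of at least 6 had a median difference of -0.27 in subclone 24, 0.25 in subclone 19 and 0.19 in subclone 18. Hk1, Pfkl, Ddit4 and P4ha1 lie on that chromosome, and each had its lowest mean in subclone 24, by -0.66, -0.84, -0.93 and -0.48. On chromosome 19, which carries Pgam1 and Mxi1, the median was -0.31 in subclone 18, and on chromosome 6, with Hk2, Tpi1, Eno2, Slc2a3 and Kdm3a, it was -0.17. In subclone 18, Pgam1 and Mxi1 differed from the other 7 by -0.41 and -0.65. There Hk2, Tpi1, Eno2, Slc2a3 and Kdm3a differed by -1.24, -0.43, -0.82, -1.32 and -0.43. Other shifts did not share the direction of the members. On chromosome 13 the median was 0.18 in subclone 18, where its member Pfkp differed by -1.36. On chromosome 8, with Egln1 and Ankrd37, it was -0.28 in subclone 28 and 0.26 in subclone 23. Egln1 and Ankrd37 differed by 0.03 and 0.39 in subclone 28, and by 0.37 and -0.19 in subclone 23. The part of the chromosome shifts in the results was not tested. Of 32 further probe sets with a mean of at least 6, in 17 of the genes, 31 had the same sign in subclone 18 as the probe set used, the exception being 1 of Pfkl at 0.03.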

How the data were processed

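Total RNA was measured on 23 Affymetrix arrays (45101 probe sets). RNA was isolated with Trizol and RNeasy columns and labelled as biotinylated cRNA, per the labels' protocols. The deposited values are linear intensities made by the authors, and how they were computed and scaled is not given in the sources used here. Probe sets were named through the platform annotation, with symbols updated by a RefSeq table of GRCm38.p6. 34945 had 1 symbol, 932 several and 9160 were unlisted, and 64 controls were left out. From the deposited intensities, log2(intensity + 16) was computed with no further normalization or filter on low values. Their number limits the precision of the arrays.

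A limma 3.58.1 model (R 4.3.3) with a coefficient per subclone (15 residual degrees of freedom) gave a moderated F-test, each subclone against the equally weighted mean of the other 7, and all 28 pairs, with Benjamini-Hochberg adjustment over 18193 genes and a threshold of 0.05. Differences are given ± SE. The script was tested on simulated data in which 100 genes were changed at each size, in subclone 18 alone. For subclone 18 against the other 7 it recovered 79% of changes of 0.5 and 99% of changes of 1 log2 unit among 18193 genes. The F-test recovered 62% and 88%. Far more genes differed in the deposited data, where 61.8% passed the F-test, so these shares need not hold there. Alternatives covered the pseudocount, normalization, low-value filter, probe set rule, prior, reference and grouping, and each array was left out in turn.

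The members and lists were chosen with earlier results of these data known. Array values are printed for members that passed the F-test and spanned 1 log2 unit or more, for Ldha as the narrowest range and for Aldoc in subclone 18, and plotted for these, for isoform pairs and for the other enzymes and induced genes. Promoter windows and their starts are RefSeq's.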

Additional observations from a re-analysis of the deposited data

How the results depend on the processing

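Of 1056 alternative values computed for 34 gene-level results (ranges of 18 members and 16 subclone differences), 1050 kept their direction and their side of the threshold. The other 6 belonged to 2 small differences, Slc2a3 in subclone 24 and Ddit4 in subclone 18. Slc2a3 turned to -0.00 with the mean of all probe sets and without subclone 18, and ran from 0.15 to 0.24 with single arrays left out. Ddit4 turned to -0.04 without subclone 24, an alternative added after the data were seen, and ran from 0.06 to 0.11 with single arrays left out. The counts of lower members in subclones 18 and 24 and of higher members in subclones 28, 6 and 2 stayed within 1.5 times under every alternative run. Of these, the count of subclone 6, which had 2 arrays, fell farthest with single arrays left out, to the limit of 1.5 times. Its median difference then ran from 0.18 to 0.23. What moved were small counts and medians. With array medians subtracted, the median difference was 0.28 in subclone 2 and -0.04 in subclone 23, with 0 members lower in subclone 2 and 1 in subclone 28. With quantile normalization, 1 was lower in subclone 2, 1 lower in subclone 28 and 2 higher in subclone 24, the median in subclone 28 was 0.24 and enzymes minus others there -0.24. A pseudocount of 1 gave 0 lower in subclone 6, 1 at least 2-fold higher in subclone 18, a median of 0.31 and enzymes minus others of -0.24 in subclone 28. A pseudocount of 64 gave medians of 0.19 in subclone 2 and 0.23 in subclone 28, 1 lower and enzymes minus others of -0.16 in subclone 28. With genes of mean at least 6, 2 were higher in subclone 24 and 1 lower in subclone 28 (median 0.29). An intensity trend with a robust prior gave 2 and 1. The mean of all probe sets gave medians of 0.21, -0.04 and 0.22 in subclones 2, 23 and 28, 1 lower in subclone 2, 4 higher in subclone 23, 0 higher in subclone 24 and enzymes minus others of 0.10 in subclone 19. Against the median of the other subclones, medians were 0.16, 0.04, 0.01, -0.07, -0.38 and 0.29 in subclones 2, 3, 19, 23, 24 and 28. Group means in place of medians gave enzymes minus others of -0.01, -0.10 and -0.17 in subclones 3, 19 and 28. With the 6 transport and flux genes counted as enzymes, the difference was -0.13, -0.06, 0.32, -0.02, -0.06 and 0.54 in subclones 2, 3, 18, 19, 23 and 24. The cause of these changes was not tested.

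Without subclone 18, added after the data were seen, medians were 0.16, 0.02, 0.13, 0.00, -0.08, -0.38 and 0.20 in subclones 2, 3, 6, 19, 23, 24 and 28. Then 5 members were higher and 10 lower in subclone 3, 2 lower in subclone 6, 10 higher in subclone 19, 3 higher in subclone 23, 0 higher in subclone 24 and 1 lower in subclone 28.

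Leaving out each array in turn gave 0 to 3 lower and a median of 0.21 to 0.24 in subclone 2, 0 to 2 lower and 0 to 1 at least 2-fold higher in subclone 6, and 1 to 3 higher in subclone 18 (1 without its replicate 3). It gave 3 to 7 higher in subclone 23 (4 without its replicate 1 and 3 without its replicate 3), 0 to 2 higher and a median of -0.37 to -0.26 in subclone 24, and 5 to 9 lowest there (5 without its replicate 1). In subclone 28, 0 to 1 were lower with a median of 0.25 to 0.29, and enzymes minus others in subclone 19 ran from 0.05 to 0.07. Replicate numbers did not pair the arrays, since over 77 same-numbered pairs the correlations of deviations ran from -0.40 to 0.34 (median -0.00), and 6 of 23 arrays lay closest to their own number. With the replicate block, 34 members still passed the F-test, 27 were lower in subclone 18, 26 in subclone 24 and 24 higher in subclone 28. The dim genes Aldoc, Slc16a3 and Car9 are limited by their signal over background.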
